A study of Arabidopsis thaliana with 21 samples.

Results

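The genes described here are 10 members of the jasmonate signalling pathway of Arabidopsis thaliana, picked by locus: the transcription factors MYC2 (AT1G32640), MYC3 (AT5G46760) and MYC4 (AT4G17880), the repressors JAZ1 (AT1G19180), JAZ2 (AT1G74950), JAZ5 (AT1G17380), JAZ6 (AT1G72450), JAZ9 (AT1G70700) and JAZ10 (AT5G13220), and the response gene VSP2 (AT5G24770). They are 10 of 24100 loci in the files, and all 10 passed the low-count filter that left 19589 genes for testing. Whole 14-day-old seedlings of 7 groups were sequenced, with 3 biological replicates in each. The groups were wild-type Col-0, asil1-1 and asil2-1 in Col-0, the double mutant asil1-1 asil2-1 in Col-0, wild-type Ler (Landsberg erecta), asil2-2 in Ler, and the double mutant asil1-1 asil2-2, labelled as a mixture of both ecotypes. ASIL1 and ASIL2 encode trihelix transcription factors. Each mutant allele was represented by 1 line, and no hormone or wounding treatment was part of the design. Within asil1-1 asil2-2, genotype and ecotype mixture cannot be told apart.

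Jasmonates are lipid-derived hormones that control defence against chewing insects, wound responses and fertility. In unstimulated cells JAZ proteins bind the bHLH factors MYC2, MYC3 and MYC4 and hold them inactive through the adaptor NINJA and the corepressor TPL. Jasmonoyl-isoleucine joins JAZ proteins to the receptor COI1, an F-box protein, the JAZ proteins are degraded, and the freed MYC factors switch on response genes. Those response genes include most JAZ genes themselves, and VSP2, which encodes a vegetative storage protein with acid phosphatase activity.

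MYC factors bind the G-box CACGTG and close variants, and trihelix factors bind GT elements. The 250 bases before the annotated start of each gene were therefore searched, on both strands, for CACGTG, its variant CACATG and the GT element GTGATT. The promoters of JAZ2, JAZ9, JAZ10 and MYC4 are shown because they are the 4 of the 10 that held a match, and capitals mark the matched letters, with CATGTG being CACATG read on the other strand. They are written 5′ to 3′ on the gene's strand, from the TAIR10.1 assembly in RefSeq.
JAZ2 (chr1:28150447-28150696, minus strand): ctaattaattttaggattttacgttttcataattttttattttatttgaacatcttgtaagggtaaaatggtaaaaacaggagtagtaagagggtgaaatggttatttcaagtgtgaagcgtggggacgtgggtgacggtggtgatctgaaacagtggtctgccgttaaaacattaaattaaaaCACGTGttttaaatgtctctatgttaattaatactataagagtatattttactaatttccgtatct
JAZ9 (chr1:26654279-26654528, plus strand): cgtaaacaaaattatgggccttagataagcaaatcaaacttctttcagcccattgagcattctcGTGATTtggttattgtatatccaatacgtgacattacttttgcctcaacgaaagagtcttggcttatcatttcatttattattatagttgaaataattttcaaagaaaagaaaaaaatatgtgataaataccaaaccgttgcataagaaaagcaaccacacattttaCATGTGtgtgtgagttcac
JAZ10 (chr5:4218536-4218785, plus strand): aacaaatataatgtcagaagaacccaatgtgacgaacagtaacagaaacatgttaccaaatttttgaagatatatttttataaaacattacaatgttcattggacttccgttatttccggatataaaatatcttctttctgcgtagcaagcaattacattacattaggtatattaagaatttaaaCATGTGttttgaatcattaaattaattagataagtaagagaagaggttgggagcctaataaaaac
MYC4 (chr4:9935686-9935935, minus strand): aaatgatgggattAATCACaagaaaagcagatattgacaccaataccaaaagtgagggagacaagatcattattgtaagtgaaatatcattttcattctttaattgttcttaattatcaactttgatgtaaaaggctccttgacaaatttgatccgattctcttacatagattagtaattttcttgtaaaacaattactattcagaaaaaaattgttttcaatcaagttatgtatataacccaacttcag
CACGTG was found in 1 of the 10 promoters, that of JAZ2, where it began 66 bases before the start. Of 27443 promoters of the same length, 6.49% held it. CACATG was found in 2 of the 10, in JAZ9 and JAZ10, against 11.1% of all promoters. GTGATT was also found in 2 of the 10, in MYC4 and JAZ9, against 15.6% of all promoters. These matches describe the letters in a short window and were not tested as binding sites.

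The libraries held 6.52 to 28.79 M counts (1e6). ASIL1 transcript was 33.6 ± 1.25 CPM (scaled counts, mean ± SD over n = 3 libraries) in Col-0 and between 4.83 and 8.01 CPM on average in the 3 groups labelled asil1-1. ASIL2 transcript was not called lower in any group labelled asil2 and reached 435 ± 54.5 CPM in asil2-1, so whole-gene counts do not check the asil2 labels. The root score, the mean log2 level of 14 root markers centred per gene, was highest in Col-0 replicates 1 and 2 (1.67 in both). Col-0 replicate 3 (0.32) lay among the other groups, which ran from -1.17 in asil1-1 replicate 2 to 0.94 in asil1-1 asil2-2 replicate 2. Touch and wound genes stood apart in asil2-1, where the summed level of the 11 genes was 1972 to 2571 CPM, against 251 to 542 in Col-0, 437 to 634 in Ler and 190 to 284 in asil2-2. The balance of long against short transcripts also differed between libraries, with a long-minus-short index of -1.08 to -0.77 in Col-0 and 0.47 to 0.63 in asil2-1. No marker of the root, leaf or touch lists was at 0 across a group.

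The most evident pattern lay between the wild types. All 10 genes were called between Ler and Col-0, where 36.1% of all genes were called at an adjusted p below 0.05 (edgeR's quasi-likelihood test, Benjamini-Hochberg adjustment): MYC2, MYC3 and the 6 JAZ genes were higher in Ler, and MYC4 and VSP2 were lower. Their median log2 fold change was 0.89, against 0.02 over all genes tested. Leaving out any 1 library left 6 to 9 of the 10 called, and the root score as a covariate left 5. The 10 genes were chosen with earlier results of these data known. In asil2-1 against Col-0, 4 of the 10 were called, against 41.3% of all genes: MYC2, JAZ1 and JAZ2 rose and VSP2 fell. In asil1-1 against Col-0, 2 were called, MYC4 and VSP2, both lower, against 17.3% of all genes. In asil1-1 asil2-1 against Col-0, 3 were called, MYC2 higher and MYC4 and VSP2 lower, against 39.2% of all genes. In asil2-2 against Ler, 3 were called, against 5.96% of all genes: MYC3 and MYC2 were lower and MYC4 was higher. In asil1-1 asil2-2, 4 were called against Ler (28.3% of all genes) and 5 against Col-0 (32.2% of all genes). These comparisons share wild-type libraries, so they are not independent of each other, and the shares called among the 10 genes in asil2-1 and asil1-1 asil2-1 were no higher than the background.

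**Figure D1:**
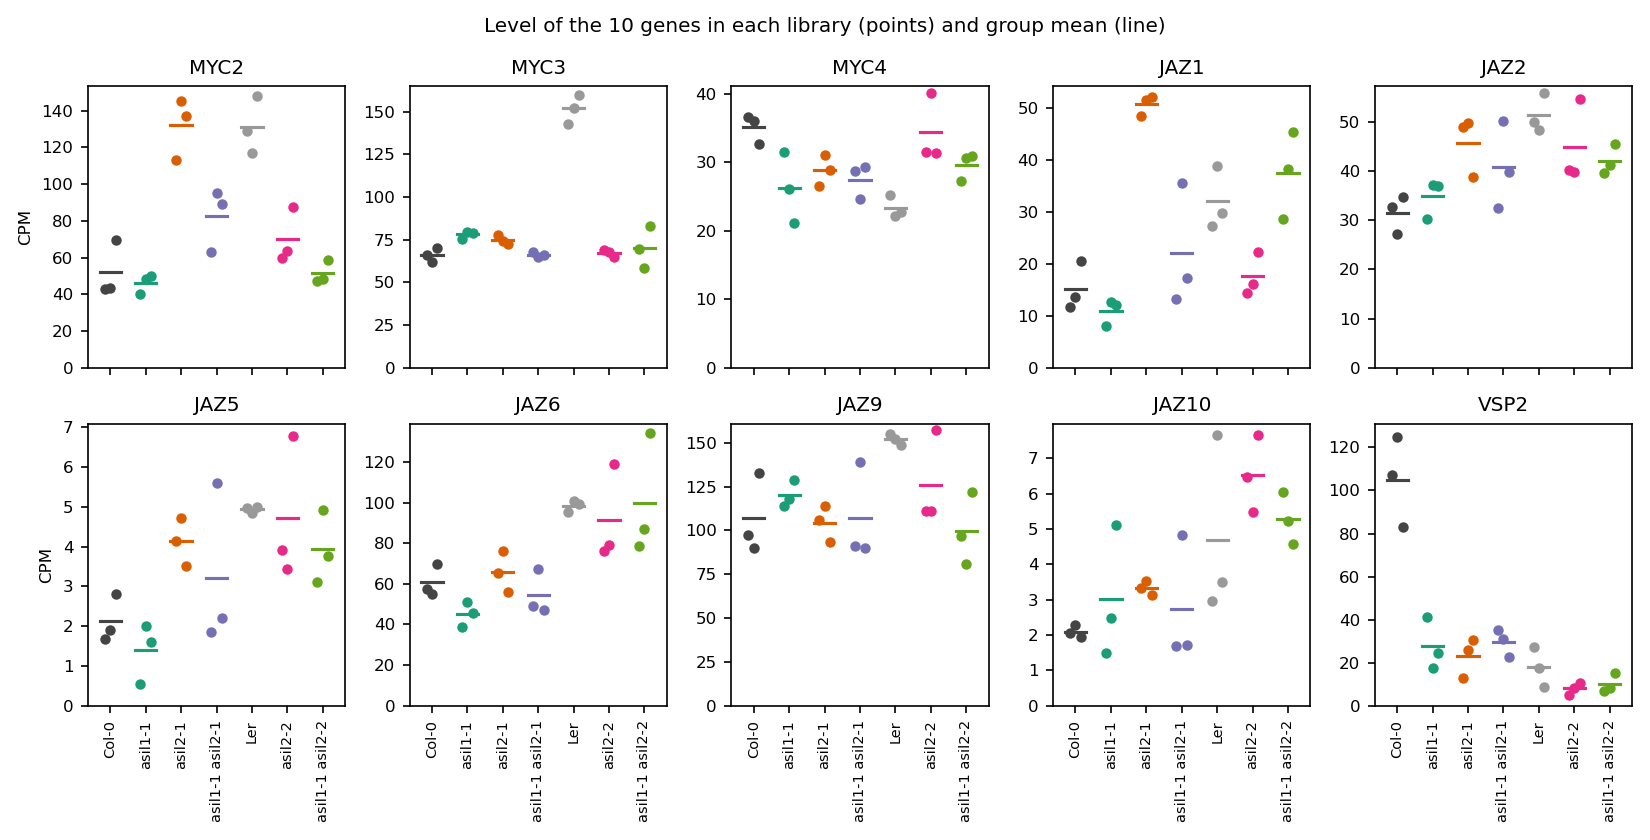
Level of each of the 10 genes in CPM (vertical axes, starting at 0) in the 7 groups, with points for the 3 libraries of a group in replicate order and lines for the group means. Ler stands above every other group for MYC3, asil2-1 and Ler stand highest for MYC2, and Col-0 stands above every other group for VSP2.

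MYC2, the main transcription factor of the pathway, was highest in asil2-1 and Ler. Its levels in replicates 1, 2 and 3 were 43.1, 43.6 and 69.5 CPM in Col-0 and 113, 145 and 137 CPM in asil2-1. Every asil2-1 library was thus above every Col-0 library, and the log2 fold change was 1.34 ± 0.19 (SE; 2.53-fold higher, adjusted p = 3.25e-05). In asil1-1 the level was 40.2, 48.2 and 50.1 CPM, overlapping Col-0, and no change was called (-0.18 ± 0.20, adjusted p = 0.573). The double mutant asil1-1 asil2-1 had 62.9, 95.1 and 89.4 CPM, and overlapped Col-0 through Col-0 replicate 3. It was called higher than Col-0 (0.66 ± 0.19, adjusted p = 0.0103) and higher than asil1-1 (0.84 ± 0.19, adjusted p = 0.00531), where 15.6% of all genes and 2 of the 10 were called. It was lower than asil2-1 (-0.68 ± 0.19, adjusted p = 0.0364), where 6.21% of all genes and 2 of the 10 were called. The asil1-1 asil2-1 level therefore lay between those of the single mutants. The call against Col-0 was lost without asil1-1 asil2-1 replicate 2, Col-0 replicate 1 or Col-0 replicate 2 (adjusted p = 0.0536, 0.0551 and 0.0587), and when Col-0 replicate 3 stood alone for Col-0 the value was 0.26 (adjusted p = 0.493). The call against asil2-1 was lost without asil1-1 asil2-1 replicate 1 or 3 or asil2-1 replicate 2 or 3, with adjusted p values up to 0.184. With the long-minus-short index as a covariate all 3 calls were lost: 0.77 against Col-0 (adjusted p = 0.264), 0.91 against asil1-1 (0.0675) and -0.69 against asil2-1 (0.0507).

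In asil2-2 and asil1-1 asil2-2 against Ler, the direction for MYC2 was opposite to that in asil2-1 against Col-0. Ler had 129, 117 and 148 CPM, asil2-2 had 59.8, 63.5 and 87.6 CPM, and asil1-1 asil2-2 had 47.2, 48.2 and 58.9 CPM. The groups asil2-2 and asil1-1 asil2-2 both lay below all 3 Ler libraries. The log2 fold change against Ler was -0.90 ± 0.19 in asil2-2 (1.86-fold lower, adjusted p = 0.00748). In the double mutant it was -1.35 ± 0.19 (2.55-fold lower, adjusted p = 2.81e-05). Without asil2-2 replicate 2 the first of these was -0.83 (adjusted p = 0.0517). Between the wild types MYC2 was 1.33 ± 0.19 higher in Ler on the log2 scale (adjusted p = 2.76e-05). The asil2-2 effect minus the asil2-1 effect, tested as an interaction, was -2.24 ± 0.27 (adjusted p = 7.95e-06). In that test 5 of the 10 genes were called, against 22.7% of all genes. It compares alleles that are in different ecotypes, so allele and background cannot be told apart.

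The touch and wound genes moved in the same direction as MYC2 in several comparisons. Of these 11 genes, 10 were higher and 0 lower in asil2-1 against Col-0 (41.3% of all genes called). In asil1-1 asil2-1 against Col-0 (39.2%), 7 were higher and 0 lower. In Ler against Col-0, 5 were higher and 0 lower, a count near the 36.1% of all genes called. In asil2-2 against Ler (5.96%), 0 were higher and 6 lower. In asil1-1 asil2-2, where MYC2 had its largest difference from Ler, 0 were higher and 5 lower than in Ler (28.3% of all genes called). The touch and wound scores (mean log2 level centred per gene) were -0.72, -0.75 and -0.54 there and 0.07, 0.39 and 0.67 in Ler. The summed level of 408 to 472 CPM overlapped Ler. Mean MYC2 was 51.5 CPM in asil1-1 asil2-2 and 70.3 CPM in asil2-2, with no call (-0.45 ± 0.19, adjusted p = 0.0927). Of the 11 touch and wound genes, 2 were higher and 0 lower in asil1-1 asil2-2 than in asil2-2. Of all genes 23.3% were called there, so that count is not a result about these 11 genes. Among them, WRKY40, a WRKY transcription factor gene, went from 8.36 ± 3.84 CPM in Col-0 to 186 ± 27.3 CPM in asil2-1 (4.48 ± 0.41, adjusted p = 1.03e-06) and from 28.4 ± 11.2 CPM in Ler to 6.57 ± 1.87 CPM in asil2-2 (-2.14 ± 0.39, adjusted p = 0.00419). Their part in the MYC2 result was not tested. Within Col-0, replicate 3 had both the highest touch and wound score (0.40, against -0.98 and -0.93) and the highest MYC2 level. With that library standing alone for Col-0, MYC2 was 0.94 higher in asil2-1 (adjusted p = 0.014). With the long-minus-short index as a covariate the asil2-1 difference was 1.46 ± 0.41 and missed the threshold (adjusted p = 0.0836). With the root score as a covariate the asil2-1 difference stayed called (0.97 ± 0.17, adjusted p = 0.000337). The asil1-1 asil2-1 difference was 0.16 under that covariate (adjusted p = 0.605). MYC2 (chr1:11798119-11801407, minus strand) overlaps AT1G32630 on the other strand over 3241 exonic bases, and no source used here says whether counting used strand, so reads of the pair cannot be told apart. AT1G32630 had 1389 counts over all libraries against 24509 for MYC2, and in asil2-1 it was lower than in Col-0 (-0.56 ± 0.22, adjusted p = 0.0458).

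**Figure D2:**
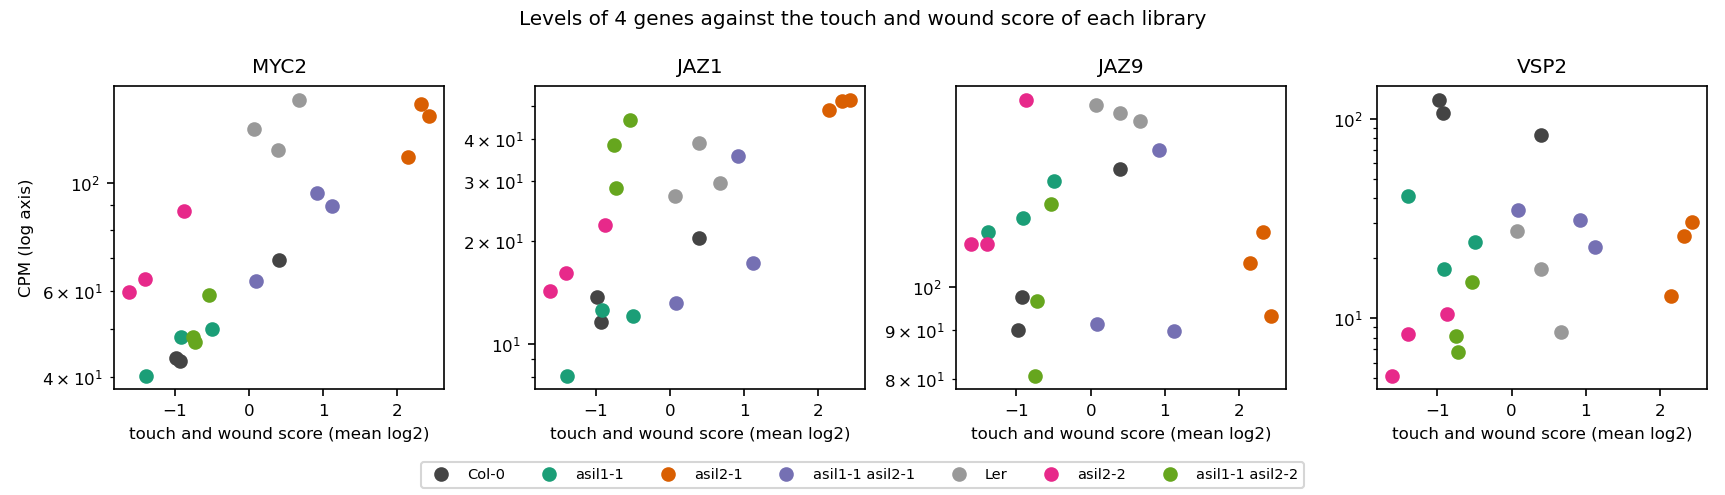
Level of MYC2, JAZ1, JAZ9 and VSP2 in each of the 21 libraries (vertical log axes, CPM) against the touch and wound score of the library (horizontal axes, mean log2 level of 11 genes centred per gene), coloured by group. The 3 asil2-1 libraries have scores of 2.15 to 2.43 and high MYC2 and JAZ1 levels, and asil1-1 asil2-2 reaches 28.6 to 45.3 CPM of JAZ1 at scores below 0.

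MYC3, which shares MYC2's target sites, varied little in 6 of the 7 groups and was high in Ler. Its level was 143, 152 and 160 CPM in Ler, and group means ranged from 66.1 ± 4.01 in Col-0 to 78.1 ± 2.11 CPM in asil1-1 among the other groups. No library of another group reached the Ler range. Ler was 1.2 ± 0.10 above Col-0 on the log2 scale (2.3-fold higher, adjusted p = 5.27e-09). Against Ler, MYC3 was lower by -1.17 ± 0.10 in asil2-2 (68.8, 67.8 and 64.9 CPM, adjusted p = 2.24e-07) and by -1.11 ± 0.10 in asil1-1 asil2-2 (69.7, 58.7 and 82.8 CPM, adjusted p = 2.35e-08). Both groups carrying asil2-2 thus had MYC3 levels that overlapped those of Col-0. Leaving out any 1 library kept the asil2-2 value between -1.22 and -1.13, called each time. No change was called in asil1-1, asil2-1 or asil1-1 asil2-1 against Col-0, and the asil2-2 effect minus the asil2-1 effect was -1.35 ± 0.14 (adjusted p = 5.97e-07).

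MYC4, the third of these factors, had smaller differences and the reverse order between the wild types. Levels were 36.7, 36.1 and 32.7 CPM in Col-0 and 25.2, 22.1 and 22.7 CPM in Ler, with no overlap (-0.60 ± 0.13, adjusted p = 0.00104). In asil2-2 it was 31.5, 40.2 and 31.4 CPM, above all Ler libraries (0.57 ± 0.13, adjusted p = 0.00933), and in asil1-1 asil2-2 it was 0.35 ± 0.13 above Ler (adjusted p = 0.0427). Against Col-0 it was lower in asil1-1 (31.5, 26.1 and 21.1 CPM, -0.41 ± 0.13, adjusted p = 0.0329) and in asil1-1 asil2-1 (-0.35 ± 0.13, adjusted p = 0.0325), and in asil2-1 it had 26.6, 31.1 and 28.9 CPM with no call by edgeR on all 21 libraries, although it was called lower there with the length trend removed (-0.45, adjusted p = 0.00883) and with the compared groups fitted alone (-0.33, 0.03). Several of these calls rested on single libraries. The asil2-2 call was lost without asil2-2 replicate 2 (adjusted p = 0.0866) or Ler replicate 2 (0.0594). The asil1-1 call was lost without asil1-1 replicate 2 (0.0908) or 3 (0.179) or Col-0 replicate 1 (0.104) or 2 (0.106). The asil1-1 asil2-1 call was lost without its replicate 2 (0.146) or Col-0 replicate 1 (0.0937) or 2 (0.089), and the asil1-1 asil2-2 call without its replicate 2 (0.094) or 3 (0.121) or Ler replicate 2 (0.142) or 3 (0.118). The asil2-2 effect minus the asil2-1 effect was 0.85 ± 0.18 (adjusted p = 0.00173).

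Among the repressors, JAZ1 changed most between the mutants. Its level was 11.6, 13.7 and 20.5 CPM in Col-0 and 48.5, 51.5 and 52 CPM in asil2-1, with no overlap (1.73 ± 0.32, 3.32-fold higher, adjusted p = 0.000489). When Col-0 replicate 3 stood alone for its group the value was 1.32. With the long-minus-short index as a covariate the value was 2.18 ± 0.62 and the call was lost (adjusted p = 0.0901). That index did not overlap between Col-0 and asil2-1, so this fit cannot tell it apart from the group. In asil1-1 asil2-1 the libraries had 13.2, 35.6 and 17.2 CPM, and replicate 2 stood above the other two. That group was called higher than asil1-1 (1.04 ± 0.33, adjusted p = 0.0424) and lower than asil2-1 (-1.19 ± 0.30, adjusted p = 0.0243). Without asil1-1 asil2-1 replicate 2 the first value was 0.50 (adjusted p = 0.24), and without any 1 asil1-1 library its adjusted p was 0.0704 to 0.157. Leaving out asil1-1 asil2-1 replicate 1 or 3, or any 1 asil2-1 library, ended the second call, with adjusted p values of 0.0521 to 0.112. The call against asil1-1 was also lost with the long-minus-short index as a covariate (1.28 ± 0.44, adjusted p = 0.113). Both calls were lost with the compared groups fitted alone (0.151 and 0.0893).

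JAZ1 also separated the groups carrying asil2-2. It had 27.2, 38.9 and 29.7 CPM in Ler, 14.3, 16.1 and 22.3 CPM in asil2-2, and 28.6, 38.2 and 45.3 CPM in asil1-1 asil2-2. The asil2-2 libraries lay below all Ler libraries, although the difference missed the threshold by edgeR on all 21 libraries (-0.88 ± 0.30, adjusted p = 0.0997). Under 4 alternatives JAZ1 was called lower at a like size: the replicate block (-0.87, adjusted p = 0.0334), the root score as a covariate (-1.02, 0.00976), the compared groups fitted alone (-0.87, 0.0211) and DESeq2 (-0.87, 0.0339). The double mutant was 1.08 ± 0.30 above asil2-2 (2.12-fold, adjusted p = 0.0151). JAZ1 was the 1 gene of the 10 called there, where 23.3% of all genes were called, and without asil1-1 asil2-2 replicate 3 or asil2-2 replicate 1 or 2 its adjusted p was 0.0619 to 0.0668. Against Col-0 the double mutant was 1.29 ± 0.32 higher (adjusted p = 0.0052), and with Col-0 replicate 3 alone the adjusted p was 0.194. The asil2-2 effect minus the asil2-1 effect was -2.61 ± 0.44 for JAZ1 (adjusted p = 0.00047). In asil1-1 asil2-2 MYC2 (51.5 ± 6.48 CPM) was at the level of Col-0 (52.1 ± 15.1 CPM), so high JAZ1 was measured there with low MYC2.

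**Figure D3:**
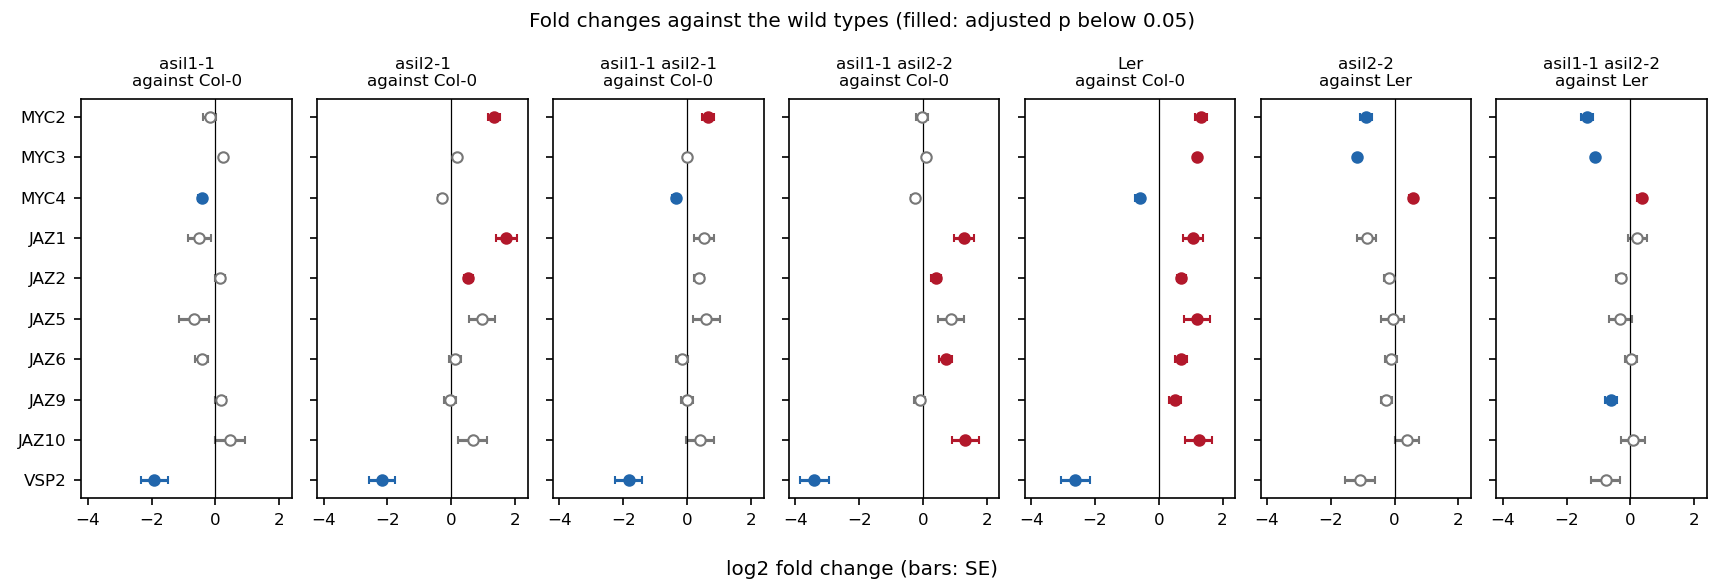
Log2 fold changes (horizontal axes, points, with bars for SE) of the 10 genes in the 7 comparisons with a wild type, filled red where called higher and blue where called lower at an adjusted p below 0.05, and open where not called. All 10 points are filled for Ler against Col-0, and VSP2 is blue in every comparison with Col-0 as the reference.

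JAZ2, JAZ6 and JAZ9 were expressed more strongly and varied less. Divided by exonic length, mean levels in Col-0 were 57.7 CPM per kb for JAZ9, 28.5 for JAZ6, 22.9 for JAZ2 and 8.45 for JAZ1, and below 1 for JAZ5 and JAZ10. JAZ2, whose promoter held the G-box, had 32.7, 27.2 and 34.6 CPM in Col-0, 48.9, 49.7 and 38.7 CPM in asil2-1 and 50, 48.2 and 55.8 CPM in Ler. The asil2-1 and Ler libraries lay above all Col-0 libraries (0.54 ± 0.15, adjusted p = 0.00826, and 0.71 ± 0.15, adjusted p = 0.00121). Without Col-0 replicate 2 the asil2-1 call was lost (adjusted p = 0.0531), and with Col-0 replicate 3 alone it was 0.42 (adjusted p = 0.211). JAZ2 was also called in asil1-1 asil2-2 against Col-0 (0.42 ± 0.15, adjusted p = 0.0425), a call lost without any 1 of its own libraries or Col-0 replicate 1 or 2 (0.0572 to 0.177). The asil2-2 effect minus the asil2-1 effect was -0.73 ± 0.21 for JAZ2 (adjusted p = 0.017), and was lost without asil2-2 replicate 1 (0.0723) or Col-0 replicate 2 (0.0561).

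JAZ6 had its highest group means in Ler and the groups carrying asil2-2, with 76.2 CPM in both asil2-1 replicate 2 and asil2-2 replicate 1. It had 57.2, 55 and 69.8 CPM in Col-0, 95.1, 101 and 99.2 CPM in Ler, 76.2, 79.1 and 119 CPM in asil2-2, and 78.5, 87 and 134 CPM in asil1-1 asil2-2. All 9 of these libraries outside Col-0 lay above all Col-0 libraries. The log2 fold change against Col-0 was 0.70 ± 0.20 in Ler (adjusted p = 0.011) and 0.72 ± 0.20 in asil1-1 asil2-2 (adjusted p = 0.0106), and the latter was lost without asil1-1 asil2-2 replicate 3 (0.0908). JAZ9 had 155, 152 and 149 CPM in Ler against 97.6, 90.2 and 133 CPM in Col-0 (0.51 ± 0.18, adjusted p = 0.0345), and fell to 96.7, 80.7 and 122 CPM in asil1-1 asil2-2 (-0.61 ± 0.18 against Ler, adjusted p = 0.0154). Leaving out Col-0 replicate 1 or 2 or any 1 Ler library ended the first JAZ9 call (0.0656 to 0.147), and leaving out asil1-1 asil2-2 replicate 2 the second (0.0793).

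JAZ5 and JAZ10, which are strongly induced by jasmonate, were the least abundant. JAZ5 had 1.68, 1.89 and 2.82 CPM in Col-0 and 4.98, 4.85 and 5 CPM in Ler (1.21 ± 0.41, adjusted p = 0.0244). In asil2-1 it had 4.15, 4.71 and 3.52 CPM, above all Col-0 libraries, with no call by edgeR on all 21 libraries (0.96 ± 0.41, adjusted p = 0.0651). It was called there with the replicate block (0.97, adjusted p = 0.0472), with the compared groups fitted alone (0.91, 0.0299) and with scaling by library size only (1.02, 0.0447). JAZ10 had 2.05, 2.27 and 1.95 CPM in Col-0, 2.96, 7.65 and 3.5 CPM in Ler, 6.46, 5.48 and 7.67 CPM in asil2-2 and 6.06, 5.23 and 4.57 CPM in asil1-1 asil2-2. All libraries of these 3 groups lay above Col-0, and Ler replicate 2 stood well above the other two Ler libraries. JAZ10 was 1.25 ± 0.43 higher in Ler (adjusted p = 0.0288) and 1.33 ± 0.43 higher in asil1-1 asil2-2 (adjusted p = 0.0226) than in Col-0. The Ler call for JAZ10 was lost without Ler replicate 2 (0.65, adjusted p = 0.285) or any 1 Col-0 library (0.0649 to 0.077), and the asil1-1 asil2-2 call without its replicate 1 (0.0679) or any 1 Col-0 library (0.0529 to 0.0678). The Ler call for JAZ5 was lost without Col-0 replicate 1 (0.0862) or 2 (0.0855) or Ler replicate 3 (0.0551), and that for JAZ1 without Col-0 replicate 1 (0.0613) or 2 (0.0544) or Ler replicate 2 (0.0639). When Col-0 replicate 3 stood alone for its group, 3 of the 10 genes were called between Ler and Col-0: MYC2, MYC3 and VSP2. With the root score as a covariate 5 of the 10 were called, and JAZ1, JAZ5, JAZ6, JAZ9 and JAZ10 were not (adjusted p values of 0.111 to 0.276).

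In several groups the 6 JAZ genes had their highest or lowest level in the same library, and in Ler they did not. All 6 were highest in replicate 2 of asil1-1 asil2-1 and in replicate 3 of asil2-2 within those groups, all 6 were lowest in replicate 1 of asil1-1, and 5 of the 6 were highest in Col-0 replicate 3 and in asil2-1 replicate 2. In Ler, replicates 1, 2 and 3 held the highest level of 1, 3 and 2 of the 6, and in asil1-1 asil2-2 of 1, 1 and 4. Over the 21 libraries, Pearson's r of log2 CPM was 0.84 between JAZ2 and JAZ5 and 0.12 between JAZ1 and JAZ9, the highest and lowest values among the JAZ pairs. For MYC2 it ranged from 0.17 with JAZ10 to 0.75 with JAZ2. These libraries share groups, so the values describe them only.

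VSP2 went against MYC2 in asil2-1 and in Ler. Col-0 had 107, 125 and 83.1 CPM, and no library of another group exceeded 41.2 CPM. In asil1-1 it had 41.2, 17.7 and 24.3 CPM (3.75-fold lower, log2 -1.91 ± 0.42, adjusted p = 0.00759). The asil2-1 libraries had 13, 25.9 and 30.5 CPM (4.51-fold lower, log2 -2.17 ± 0.42, adjusted p = 0.000974). The asil1-1 asil2-1 libraries had 35, 31 and 22.7 CPM (3.55-fold lower, log2 -1.83 ± 0.42, adjusted p = 0.003). The double mutant did not lie below the single mutants. The departure from additivity of the log2 effects of asil1-1 and asil2-1 was 2.25 ± 0.59 (adjusted p = 0.0457), VSP2 being the 1 gene of the 10 called there, against 4.55% of all genes. That call was lost under 10 of the 12 fits without 1 library (all but those without asil1-1 replicate 1 or Col-0 replicate 3), with values of 1.98 to 2.67 and adjusted p values up to 0.125.

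Ler had 27.4, 17.7 and 8.5 CPM of VSP2 (-2.61 ± 0.44 against Col-0, 6.11-fold lower, adjusted p = 0.000298). The lowest levels were 5.16, 8.34 and 10.5 CPM in asil2-2 and 6.81, 8.13 and 15.2 CPM in asil1-1 asil2-2, which overlapped Ler. Neither differed from Ler by the test (-1.08 ± 0.46, adjusted p = 0.185, and -0.78 ± 0.46, adjusted p = 0.23). Against Col-0, asil1-1 asil2-2 was 10.5-fold lower (-3.40 ± 0.45, adjusted p = 5.02e-05). Col-0 replicates 1 and 2, with the highest VSP2 levels, also had the highest root scores. Outside Col-0, asil1-1 asil2-2 had scores of 0.81, 0.94 and 0.10 beside its low VSP2 levels. Within asil1-1 (-0.59, -1.17 and -0.98) and Ler (0.74, 0.04 and -0.54) the scores ranked the libraries as VSP2 did. Within asil2-2 (0.40, -0.33 and -0.70) the order was the reverse, and in the remaining groups outside Col-0 it was mixed. The part of the root score in the VSP2 result was not tested. With that score as a covariate VSP2 was -1.15 in asil1-1 (adjusted p = 0.4), -1.18 in asil1-1 asil2-1 (0.148), -1.68 in asil2-1 (0.0234) and -2.22 in Ler (0.00246). With the long-minus-short index as a covariate it was -2.67 ± 0.90 in asil2-1 (0.157). Col-0 replicate 3 standing alone for its group gave -1.56 in asil1-1 (0.233), -1.48 in asil1-1 asil2-1 (0.0865), -1.82 in asil2-1 (0.0396) and -2.26 in Ler (0.0151).

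VSP1, the paralog next to VSP2, followed it in the Col-0 background and parted from it between the wild types. Against Ler, VSP1 was -0.99 ± 0.38 in asil2-2 (adjusted p = 0.139) and -0.82 ± 0.38 in asil1-1 asil2-2 (0.119). VSP2 was -1.08 and -0.78 there, and none of these was called. VSP1 had 26.4, 41.8 and 13.2 CPM in Col-0, fell in asil1-1 (7.97 ± 4.1 CPM, -1.75 ± 0.44, adjusted p = 0.014), asil2-1 (7.32 ± 0.316 CPM, -1.90 ± 0.43, adjusted p = 0.00267) and asil1-1 asil2-1 (8.66 ± 2.84 CPM, -1.65 ± 0.42, adjusted p = 0.00625), and had 61.5, 66.4 and 31.5 CPM in Ler, with no call. Of the 36-base stretches of VSP2 exons, 3.6% occurred in another gene, against 0% for the other 9 genes. Reads of all groups were set against TAIR10, the sequence of Col-0, so in the ecotype comparison a change in transcript level and a change in how well Ler reads match cannot be told apart.

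The other genes of the pathway were counted list by list, and a count near the share of all genes called in a comparison (36.1% in Ler and 41.3% in asil2-1 against Col-0, 28.3% in asil1-1 asil2-2 against Ler) is not a result about the list. Of 5 other JAZ genes tested, 2 were higher in Ler than in Col-0 (JAZ12, 78.3 ± 5.69 against 60.6 ± 4.1 CPM, and JAZ3) and 1 was lower (JAZ4), and 0 were called in asil2-1 by edgeR (1 had an unadjusted p below 0.05). COI1, the receptor gene, rose in asil2-1 (38.9 ± 1.99 to 47.3 ± 1.14 CPM, 0.28 ± 0.08, adjusted p = 0.00968) and was lower in asil2-2 than in Ler (37.6 ± 1.27 against 45.3 ± 3.66 CPM, -0.27 ± 0.08, adjusted p = 0.0485). TPL, the corepressor, was higher than in Col-0 in asil1-1 (0.58 ± 0.13, adjusted p = 0.00505), asil2-1 (0.72 ± 0.13, adjusted p = 0.000225) and asil1-1 asil2-1 (0.65 ± 0.13, adjusted p = 0.000574). JAM1, which encodes a bHLH protein that competes with the MYC factors as a repressor, rose from 25.3 ± 2.75 CPM in Col-0 to 57 ± 3.88 CPM in asil2-1 (1.17 ± 0.12, adjusted p = 4.89e-07) and was at 43.6 ± 2.45 CPM in Ler (0.79 ± 0.13, adjusted p = 4.96e-05).

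Hormone synthesis genes differed in which members were called. Of 13 tested, 5 were higher and 1 lower in asil2-1 than in Col-0, a count near the 41.3% of all genes called there, the 13-lipoxygenase gene LOX4 rising from 7.22 ± 1.62 to 74.4 ± 27 CPM (3.37 ± 0.42, adjusted p = 2.01e-05) and LOX3 from 18.1 ± 2.45 to 62.7 ± 19.8 CPM (1.80 ± 0.21, adjusted p = 3.82e-06). LOX2, the main leaf lipoxygenase of the pathway, was 401 ± 47 CPM in Col-0 and 354 ± 14.8 CPM in asil2-1. In Ler against Col-0, where 36.1% of all genes were called, 7 of the 13 were higher and 1 was lower. LOX2 reached 1511, 1320 and 1015 CPM in Ler (1.68 ± 0.23, adjusted p = 1.97e-05), and AOS, allene oxide synthase, was at 286 ± 3.29 against 146 ± 14.3 CPM (0.96 ± 0.16, adjusted p = 5.68e-05). In asil1-1 asil2-2 both were lower than in Ler (LOX2 -1.13 ± 0.23, adjusted p = 0.00108, and AOS -1.01 ± 0.15, adjusted p = 4.53e-05). Of 6 breakdown genes, 0 were called in asil2-1 by edgeR, 0 having an unadjusted p below 0.05, and 1, ILL6, was higher in Ler (41.2 ± 5.35 against 16 ± 1.81 CPM, 1.37 ± 0.28, adjusted p = 0.000877). ILL6 encodes an amidohydrolase that cleaves jasmonoyl-isoleucine.

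Response genes were counted by branch. Of 9 genes of the MYC branch, 4 were higher in Ler than in Col-0 and 0 lower, near the 36.1% of all genes called. CORI3, a coronatine-induced gene, went from 54 ± 4.93 to 225 ± 34 CPM (2.06 ± 0.24, adjusted p = 4.16e-06), while in asil2-1, where MYC2 was as high, it was at 51.5 ± 9.14 CPM. In asil2-1, 1 of the 9 was higher (RD26, a NAC factor gene) and 3 were lower, JR1, VSP1 and CLH1. JR1, which encodes a jacalin-related lectin, was also lower in asil1-1 (-0.72 ± 0.12, adjusted p = 0.000758) and asil1-1 asil2-1 (-0.72 ± 0.12, adjusted p = 0.000151). Of 7 genes of the ERF branch, which responds to jasmonate and ethylene together, 3 were lower in asil2-1 than in Col-0, and both branches thus had called shares near the 41.3% of all genes there. One of the 3 was CHIB, a basic chitinase gene (45.2 ± 21.4 to 5.77 ± 1.6 CPM, -2.95 ± 0.48, adjusted p = 0.00023), and in Col-0 replicate 3, where the root score was 0.32, CHIB was at 21.3 CPM against 51.6 and 62.6 CPM. In asil1-1 asil2-2 against Ler, where 28.3% of all genes were called, 6 of the 7 were higher and 0 lower. Several of the 6 had libraries that overlapped Ler, PDF1.2C (20.4 against 3.13 CPM on average) among them, and another averaged 0.74 against 0.12 CPM. The libraries of CHIB and HEL did not overlap in that comparison. Of the 9 MYC-branch genes, 0 were higher and 3 lower in asil1-1 asil2-2 than in Ler, and the difference between the branches was not tested. The defensin gene PDF1.2A, the usual marker of the ERF branch, had 10.3, 81.3 and 98.1 CPM in asil1-1 asil2-2. It had 10.9, 1.01 and 5.14 CPM in Ler (3.79 ± 0.83, adjusted p = 0.00313), and asil1-1 asil2-2 replicate 1 lay within the Ler range.

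**Figure D4:**
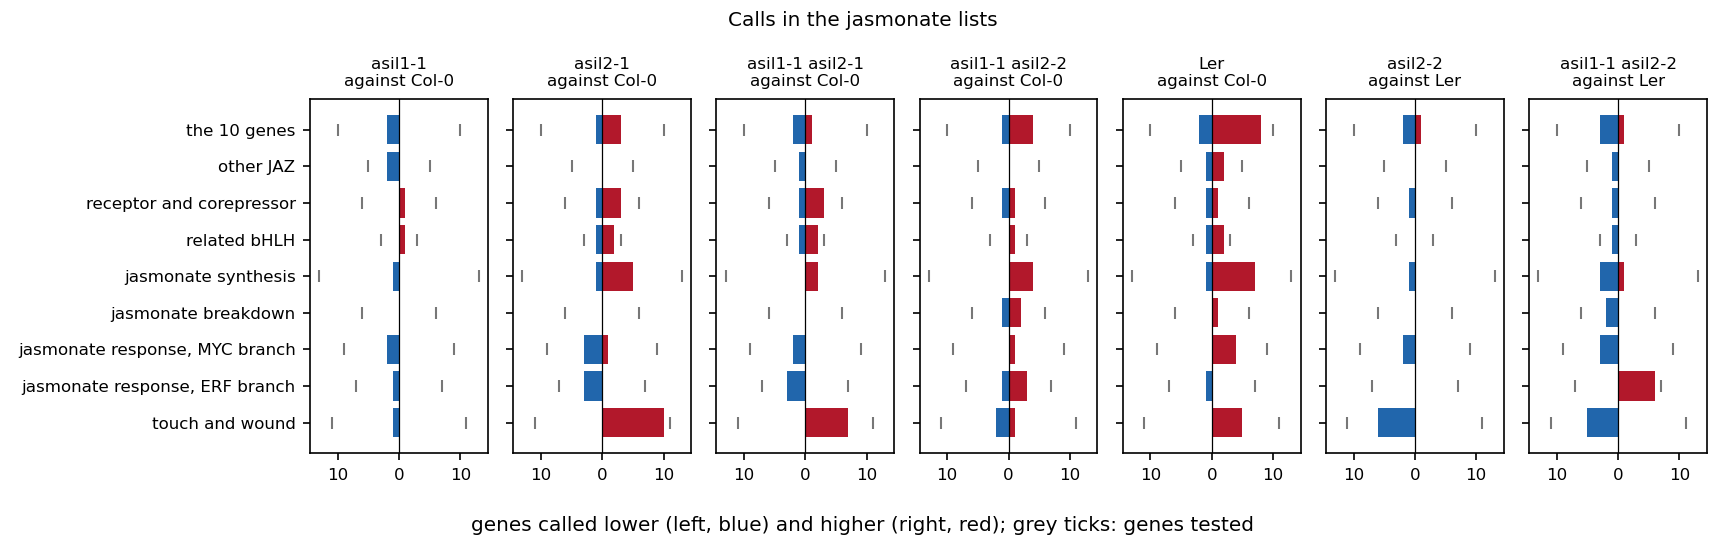
Number of genes called higher (red, to the right) and lower (blue, to the left) at an adjusted p below 0.05 in the 10 genes and in 8 lists, for the 7 comparisons with a wild type, with grey ticks at the number tested. Touch and wound genes are red in asil2-1 (10 of 11) and blue in asil2-2 (6 of 11), and the ERF branch is red in asil1-1 asil2-2 against Ler (6 of 7).

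By Pearson's r of log2 CPM over the 21 libraries, among 18105 genes, the genes most like MYC2 were RAP2.4 (0.93), AT3G52800 (0.92), AT1G69900 (0.91) and AT5G46710 (0.91). Those most like JAZ1 were AT5G16880 (0.91), AT2G30720 (0.89), AtIPCS2 (0.88) and AT1G50570 (0.88). JAZ10 was matched by TBP1 (0.83), AT3G48640 (0.83), AT4G30910 (0.80) and the synthesis gene AOC1 (0.79), and VSP2 by RD28 (0.90), ZIP7 (0.90), PIP2B (0.88) and AT1G09390 (0.88). RD28 and PIP2B encode plasma membrane water channels.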

How the data were processed

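Per the labels, seedlings grew for 14 days on sucrose-free medium and polyA RNA was sequenced. The deposited files hold raw read counts for 1 model per locus, made by the authors with Bowtie 0.12.7 and TAIR10, per the submitters' processing notes. No source used here gives the counting program, its strand setting or its treatment of multiply mapping reads. Model suffixes were removed.

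Counts were fitted with edgeR 4.0.16 in R 4.3.3 (TMM scaling, filterByExpr, robust quasi-likelihood, all 21 libraries with a mean for each group, leaving 14 residual degrees of freedom), and p-values were adjusted by Benjamini-Hochberg over 19589 genes. CPM use TMM-scaled library sizes, and SE follow from the F statistic. DESeq2 1.42.0 was an alternative. Same-group libraries differed by more than sampling noise (chi-square per degree of freedom 3.79 to 24). Scripts were tested on simulated data.

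The 10 genes and all lists were chosen with earlier results of these data known. From lists holding 95 further genes (7 more were left out because the gene table does not give their names), up to 4 per list were eligible to be named, by smallest p, and similar genes were the 4 with the highest r at a mean of at least 1 CPM. Promoters and overlaps came from TAIR10.1, as the files hold no coordinates.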

Additional observations from a re-analysis of the deposited data

Results flagged for a closer look

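Differences between groups that passed a test of the difference itself are given here, and groups of 3 libraries were not tested for outliers. For the asil2-2 effect (against Ler) minus the asil2-1 effect (against Col-0), the log2 values were -2.24 ± 0.27 for MYC2 (adjusted p = 7.95e-06), -1.35 ± 0.14 for MYC3 (5.97e-07), 0.85 ± 0.18 for MYC4 (0.00173), -2.61 ± 0.44 for JAZ1 (0.00047) and -0.73 ± 0.21 for JAZ2 (0.017), all by edgeR's quasi-likelihood test. MYC2, MYC3, MYC4 and JAZ1 were called in this comparison under every fit without 1 library. The 2 alleles are in different ecotypes, so allele and background cannot be told apart. For the departure from additivity of asil1-1 and asil2-1, VSP2 had 2.25 ± 0.59 (adjusted p = 0.0457), a call lost under 10 of the 12 fits without 1 library.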

How the results depend on the processing

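Called counts are members of the 10 genes unless stated. For single genes, 1178 of 1270 values under other settings and 763 of 840 without 1 library stayed on the same side of the threshold. No value called in either fit changed sign, but 37 of the former and 37 of the latter, all uncalled, did, among them, with the root score in asil1-1, JAZ2 (0.14 to -0.36) and JAZ9 (0.17 to -0.34). With the root score as a covariate, members called went, against Col-0, from 10 to 5 in Ler, 2 to 0 in asil1-1 and 3 to 0 in asil1-1 asil2-1, and 1 to 0 for non-additivity. With the long-minus-short index (added after seeing the data, as was scaling by library size only) they went from 4 to 0 in asil2-1, 3 to 0 in asil1-1 asil2-1 and 5 to 2 in asil1-1 asil2-2 against Col-0, 2 to 1 in asil1-1 asil2-1 against asil2-1 (JAZ1), and 1 to 0 for non-additivity. Against asil1-1 they went from 2 (MYC2 and JAZ1) to 1, which was another gene, MYC3 (-0.41, adjusted p = 0.0368). With the index in asil2-1 against Col-0, values were 1.46 for MYC2, 2.18 for JAZ1, 0.58 for JAZ2 and -2.67 for VSP2. Their SE went from 0.19 to 0.41, 0.32 to 0.62, 0.15 to 0.32 and 0.42 to 0.90. When Col-0 replicate 3 stood alone for Col-0, 0 members were called in asil1-1, asil1-1 asil2-1 and non-additivity, 1 in asil1-1 asil2-2, 2 in asil2-1 and 3 in Ler. With no low-count filter they were 1 against asil1-1 and 0 for non-additivity. Removing the length trend gave 1 against asil2-1 and 0 for non-additivity. Fits of the compared groups alone gave 1 against asil2-1 and 2 for non-additivity. Replicate numbers did not pair libraries (correlations of same-numbered deviations -0.40 to 0.35), and the replicate block moved asil1-1 asil2-2 against asil2-2 from 1 to 2 and non-additivity from 1 to 0, and no other count by over 1.5 times. Where 0 members were called under these edgeR fits, 1 to 4 had an unadjusted p below 0.05. The causes were not tested. Without 1 library, counts against Col-0 ranged from 1 to 2 for asil1-1, 3 to 4 for asil2-1, 6 to 9 for Ler, 1 to 4 for asil1-1 asil2-1 and 3 to 4 for asil1-1 asil2-2. They ranged from 1 to 3 in asil2-2 and 2 to 4 in asil1-1 asil2-2 against Ler, 1 to 3 and 0 to 2 in asil1-1 asil2-1 against asil1-1 and asil2-1, 0 to 1 in asil1-1 asil2-2 against asil2-2, 0 to 1 for non-additivity and 4 to 5 for the asil2-2 minus asil2-1 effect. Over all genes, the main count and that with Col-0 replicate 3 alone were 3382 and 202 for asil1-1, 8081 and 3953 for asil2-1, 7077 and 3762 for Ler, 7683 and 3895 for asil1-1 asil2-1, 6303 and 3942 for asil1-1 asil2-2, 892 and 0 for non-additivity (2484 at an unadjusted p below 0.05), and 4437 and 2020 for the asil2-2 minus asil2-1 effect. With the root score they were 296 for asil1-1, 4783 for asil2-1, 4288 for asil1-1 asil2-1 and 19 for non-additivity, and rose from 1167 to 2019 in asil2-2 against Ler and from 1216 to 1960 in asil1-1 asil2-1 against asil2-1. With the long-minus-short index they were 1970 for asil1-1, 301 for asil2-1, 770 for asil1-1 asil2-1, 2115 for asil1-1 asil2-2, 4551 for Ler, 181 for non-additivity and 1749 for the asil2-2 minus asil2-1 effect, and fell from 3065 to 1048 in asil1-1 asil2-1 against asil1-1. DESeq2 gave 1513 for non-additivity. Library size only moved all-gene medians by up to 0.16 (log2), and the percentage of calls that were higher from 51.6 to 40.4 in asil1-1 and 51.9 to 71.6 in asil1-1 asil2-2 against Col-0, from 40.1 to 58.0 in asil2-2 and 52.3 to 75.2 in asil1-1 asil2-2 against Ler, from 39.7 to 69.6 in asil1-1 asil2-1 against asil1-1, from 57.6 to 74.2 in asil1-1 asil2-2 against asil2-2 and from 48.8 to 60.9 for non-additivity. Among the 10 genes, SE between groups were largest for JAZ5, JAZ10 and VSP2 (0.36 to 0.48), and TAT3 and THI2.1 of the MYC-branch list reached 1.87 and 2.21.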

Other observations

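MYC3 was not alone at its place on chromosome 5. Of 17 tested genes within 50 kb of it, 6 were higher and 3 lower in Ler than in Col-0 (36.1% of all genes were called), and 0 were higher and 5 lower in asil2-2 than in Ler (5.96%). Those 5 (AT5G46710, AT5G46730, UBP21, AGD9 and AT5G46780) were all among the 6 that were higher in Ler. In asil1-1 asil2-2 against Ler (28.3%) the same 5 genes were among 6 called lower, and 4 others were higher (AT5G46640, PYL1, AT5G46850 and AT5G46870). In asil2-1 against Col-0 (41.3%), 4 were higher and 5 lower. AT5G46710 was also among the 4 genes most like MYC2 over the libraries. Around MYC2, 15 genes were tested and 0 were higher and 1 lower in asil2-2 than in Ler. Around MYC4, 16 genes were tested and 0 were higher and 2 lower in asil2-2 than in Ler. In asil1-1 asil2-2 against Ler (28.3%), 3 of the 16 were higher and 0 lower. Those 3 (AT4G17800, AT4G17830 and PYR1) were among 4 that were lower in Ler than in Col-0. The window was chosen after the values were seen, and no explanation was tested.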
